A study of Mus musculus with 2 samples.

Results

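The cell cycle genes described here are 54 genes in 4 classes that follow the phases of division: 13 genes of G1 and its exit, 16 of DNA replication, 20 of mitosis and 5 cyclin-dependent kinase inhibitors. They were chosen by symbol from a list and matched by Ensembl identifier to the gene tables of both libraries, where all 54 were found among 43346 Ensembl genes. A further entry of that list carries a mark that makes it no gene symbol, and it has no value here. The tissue was whole adrenal gland from B6NCrl pups on postnatal day 0, with 2 adrenals per pup and 1 total RNA library per pup. Both pups came from 1 pregnant animal by the labels, which name no treatment, and their sex was not collected. Both libraries form 1 group, so the data give the level of each gene in the newborn gland and the distance between pup 2 and pup 1, and they allow no test between the pups.

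A dividing cell passes through G1, DNA synthesis, G2 and mitosis. D-type cyclins with Cdk4 or Cdk6, followed by E-type cyclins with Cdk2, phosphorylate the retinoblastoma proteins and so free the E2F factors, which turn on genes of DNA replication. Genes of mitosis are kept silent in resting cells by a complex that binds the CHR element of their promoters, and they are turned on later in the cycle. The adrenal cortex keeps renewing itself from cells under the capsule, and chromaffin precursors and sympathetic neuroblasts also divide around birth, so RNA of a whole gland mixes dividing and resting cells of several types. In such bulk samples fewer dividing cells and less RNA per cell cannot be told apart.

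Depth was 40800539 estimated counts for pup 2 and 41510071 for pup 1. Levels are given as TPM, an abundance per transcript length that can be compared between genes. Distances between the pups are log2 ratios of pup 2 over pup 1 from TMM-scaled counts, a scaling that sets the bulk of genes level, so every direction below is relative to the bulk of genes. TPM ratios ran above them, and over genes that averaged 10 or more counts the median gap was 0.37 (log2). Scaling by spike-in RNA moved the median ratio of all genes to 2.57 and put 53 of 53 members higher in pup 2. The pups also differed in cell type markers. The summed TPM was 14488 in pup 2 and 5536 in pup 1 for 6 markers of the steroid-producing cortex, 3489 and 1468 for 6 of chromaffin cells, and 368 and 1144 for 6 of sympathetic neurons. It was 231 in pup 2 and 126 in pup 1 for 5 of endothelium, 10587 and 14042 for 8 of red blood cells, 442 and 757 for 7 of leukocytes, 1756 and 2259 for 4 of liver, and 1472 and 1560 for 4 of stroma. The sums for red blood cells rest on Hbb-bs and Hba-a1, and those for leukocytes on S100a8 and Lyz2. By TPM 6 red blood cell markers were higher in pup 2 and 2 in pup 1, and 4 and 3 leukocyte markers. All markers of these lists reached TPM 1 in both pups and none was at 0, and their part in the values below was not tested.

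Nearly all of the machinery of division was expressed in both glands. TPM 1 was reached in both pups by 53 of the 54 genes, against 60.5% of 21474 protein-coding genes and 32.9% of all Ensembl genes, and TPM 10 by 36. The exception was Cdkn2a, the locus of p16Ink4a and p19Arf. The median level was 19.4 TPM in pup 2 against 15.4 TPM in pup 1 over all 54 genes, while the 12983 protein-coding genes at TPM 1 or more in both pups had a median of 13.2 TPM for the mean of the pups. By class the median was highest for replication, with 28.5 TPM in pup 2 against 17.3 TPM in pup 1. Mitosis genes followed with 16.0 and 13.8 TPM, then G1 genes with 13.5 and 10.2 TPM, and inhibitors with 11.4 and 11.8 TPM. The place of the inhibitors rests on Cdkn2a: without it their median was 24.3 TPM in pup 2 and 23.0 TPM in pup 1, below the replication median in pup 2 and above it in pup 1. The SD over the pups of a class median ran from 0.297 TPM for inhibitors to 7.94 TPM for replication (n = 2). The order of the genes was much the same in both glands, with Cdk4, Ccnd3 and Cdk1 on top in each.

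**Figure D1:**
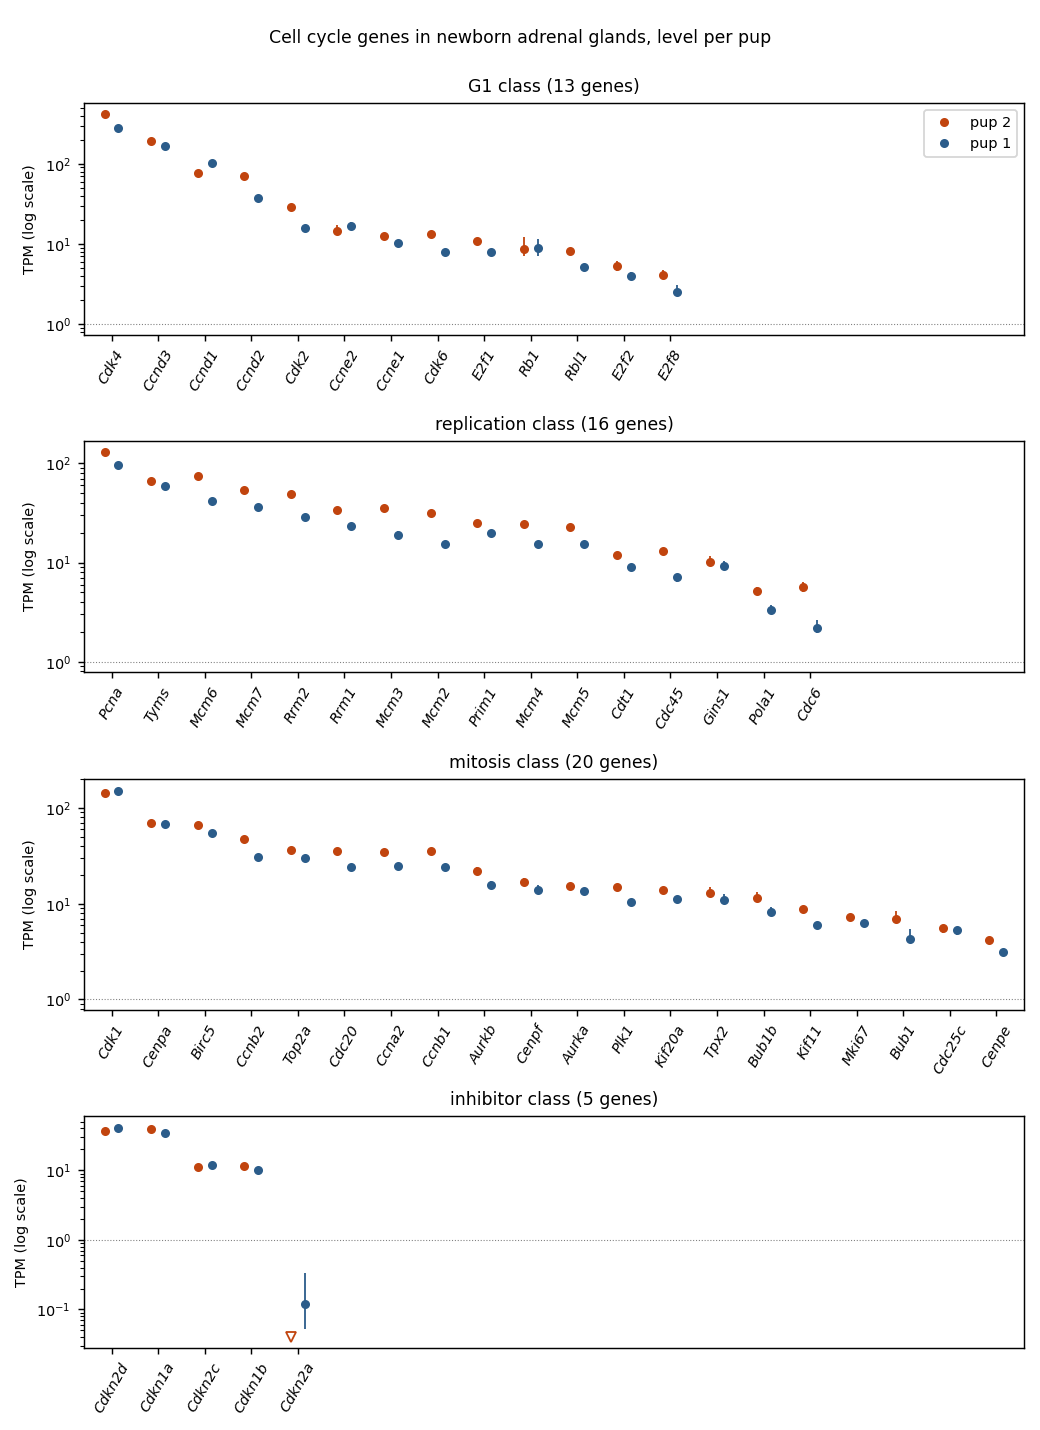
Level of each of the 54 cell cycle genes in TPM on a log scale, by class, with pup 2 left of pup 1 for each gene. Lines are the quantifier's intervals, the dotted line is TPM 1, and the open triangle marks Cdkn2a, listed at 0 in pup 2. Of all 54 genes, only Cdkn2a lies below the dotted line.

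Among G1 genes, the kinase gene Cdk4 and the cyclin gene Ccnd3 stood far above the rest. Cdk4, which pairs with D-type cyclins (ENSMUSG00000006728, chromosome 10, 127063534 to 127067920, plus strand, mm10), had 415 TPM in pup 2 against 284 TPM in pup 1, or 349.6 ± 93.0 TPM (SD, n = 2). Cdk1, the mitotic kinase, came second of the 4 kinase genes with 142 and 152 TPM. Cdk2, the partner of cyclins E and A, had 29.1 and 15.9 TPM, and Cdk6, the other partner of D-type cyclins, 13.5 and 7.84 TPM. Cdk4 thus held 69.2% of the summed TPM of these 4 genes in pup 2 and 61.8% in pup 1, and Cdk6 2.24% and 1.71%, in the same order in both glands. In protein-coding transcripts alone Cdk4 held 50.1% in pup 2 and 43.4% in pup 1, against 34.2% and 45.7% for Cdk1, so Cdk1 led in pup 1.

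All D-type cyclin genes, whose proteins carry growth signals to the cycle, were well expressed, and their mixture differed between the pups. Ccnd3 (chromosome 17, 47505051 to 47599691) had 193 TPM in pup 2 against 167 TPM in pup 1, and its share of the family, 55.6% ± 1.45 (SD, n = 2), varied little. Ccnd1 (chromosome 7, 144929931 to 144939925) had 77.5 TPM in pup 2 against 102 TPM in pup 1, or 22.8% and 33.3% of the family. Ccnd2 (chromosome 6, 127125162 to 127152193) had 70.1 TPM in pup 2 against 37.1 TPM in pup 1, or 20.6% and 12.1%. Ccnd1 and Ccnd2 thus lay apart in opposite directions. By scaled counts the log2 ratio of Ccnd1 was -0.70 (95% counting interval -0.74 to -0.65), the lowest of all 53 members with enough counts. That of Ccnd2 was 0.53 (0.49 to 0.57), and that of Ccnd3 was -0.20 (-0.24 to -0.16), opposite in direction to its TPM. Only under spike-in scaling, which lifts every member, was Ccnd1 higher in pup 2.

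**Figure D2:**
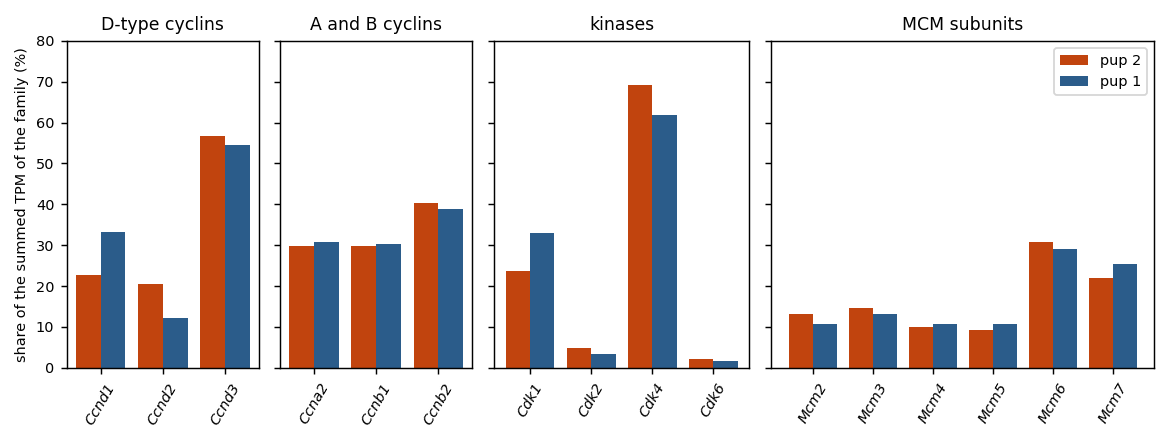
Share of each gene in the summed TPM of its family in percent, with pup 2 left of pup 1, for D-type cyclins, A and B cyclins, 4 kinases and 6 MCM subunits. Over all transcripts of each gene, Ccnd3, Ccnb2, Cdk4 and Mcm6 hold the largest share of their families in both pups.

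The E-type cyclins, E2F factors and retinoblastoma family stood at lower levels. Ccne2 had 14.5 TPM in pup 2 against 16.6 TPM in pup 1, and Ccne1 12.5 and 10.2 TPM. The counts of Ccne1 were 769 in each pup, and the log2 ratio of Ccne2 was -0.55 (-0.65 to -0.45). E2f1, an activating factor, had 10.7 and 8.04 TPM, E2f2 5.24 and 3.94 TPM, and E2f8, an atypical E2F that represses, 4.04 and 2.54 TPM, the lowest of the class over all transcripts. Rb1, the retinoblastoma gene, had 8.53 and 8.80 TPM with quantifier intervals of 7.15 to 12.2 and 7.08 to 11.4 TPM, and its relative Rbl1 8.10 and 5.15 TPM. Of the 13 genes of the class, 7 were higher in pup 2 and 6 in pup 1 by scaled counts, and 10 and 3 by TPM. Of all genes that averaged 10 or more counts, 50.2% were higher in pup 2 by scaled counts and 72.1% by TPM. The class median of the log2 ratio was 0.03.

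Genes of DNA replication leaned towards pup 2. By scaled counts 13 of the 16 were higher in pup 2, against 50.2% of all 18670 genes that averaged 10 or more counts, and the counting interval lay above 0 for 11, against 34.8%. That 34.8% includes genes under 100 counts, whose intervals are wider, whereas all 16 averaged 100 or more. The class median was 0.25, with members from -0.28 (Gins1) to 0.92 (Cdc6), against 0.00 over all genes. By TPM all 16 were higher in pup 2, against 72.1% of all genes. In no scaling tried was the class median below 0. Markers of cortex (median log2 ratio 1.15) and chromaffin cells (0.80) were higher in pup 2 as well and those of sympathetic neurons lower (-1.99), and their part in this lean was not tested.

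The replication genes include all subunits of the MCM helicase, which is loaded on DNA as a ring of Mcm2 to Mcm7 in equal numbers. All 6 were higher in pup 2 in every scaling tried, with log2 ratios from 0.17 (Mcm5) to 0.66 (Mcm2, 0.58 to 0.74). Their RNA was not in equal amounts. Mcm6 (chromosome 1, 128331590 to 128359664, minus strand) had 75.1 TPM in pup 2 against 41.8 TPM in pup 1, or 30.0% ± 1.196 of the summed TPM of the ring (SD, n = 2). Mcm7 had 53.8 and 36.3 TPM, Mcm3 35.7 and 19.0 TPM, Mcm2 31.8 and 15.5 TPM, Mcm4 24.6 and 15.4 TPM, and Mcm5 22.7 and 15.5 TPM. The most abundant subunit stood 3.30-fold above the least in pup 2 and 2.72-fold in pup 1. Mcm6, Mcm7 and Mcm3 came in this order in both pups, whereas the other 3 were nearly level in pup 1 and came in another order there than in pup 2. The place of Mcm3 held only over all its transcripts: in protein-coding transcripts alone it came below Mcm2 in both pups.

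The 4 members that load or start the helicase, Cdc6, Cdt1, Cdc45 and Gins1, each had lower TPM than every MCM subunit in both pups. Cdc6, a loader, had 5.67 TPM in pup 2 against 2.20 TPM in pup 1, from 511 and 255 counts. Its log2 ratio of 0.92 (0.70 to 1.14) was the furthest from 0 of all members, and 11.4% of the 13870 genes that averaged 100 or more counts lay at least as far apart. Cdt1, its partner in loading, had 11.8 and 8.98 TPM and did not lie apart beyond counting error (log2 ratio 0.01, -0.13 to 0.16). Cdc45, which activates the helicase, had 13.0 and 7.10 TPM (log2 ratio 0.43), and Gins1, a subunit of the complex that joins it, 10.2 and 9.13 TPM (-0.28).

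Pcna, the sliding clamp of DNA polymerases (chromosome 2, 132249162 to 132253314), led the class with 131 TPM in pup 2 against 96.1 TPM in pup 1, and its scaled counts were level (log2 ratio 0.03, -0.03 to 0.08). Of the genes that supply nucleotides, Tyms, thymidylate synthase, had 65.8 and 59.0 TPM. Rrm2 and Rrm1, the subunits of ribonucleotide reductase, had 49.5 and 29.0 TPM, and 33.8 and 23.2 TPM. Their log2 ratios were -0.11 for Tyms, 0.35 for Rrm2 and 0.16 for Rrm1. Pola1 and Prim1, of the polymerase that starts new strands, had 5.17 and 3.30 TPM, and 25.2 and 20.0 TPM.

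By scaled counts, mitosis genes were nearly level between the glands. Of 20, 11 were higher in pup 2 and 9 in pup 1 by scaled counts, against 14 and 6 by total counts and 19 and 1 by TPM. Of all genes that averaged 10 or more counts, 50.2% were higher in pup 2 by scaled counts and 72.1% by TPM. The class median of the log2 ratio was 0.02, and no member of the class lay further from 0 than Cdk1. Cdk1 (chromosome 10, 69335146 to 69352938, minus strand) had 142 TPM in pup 2 against 152 TPM in pup 1, at a log2 ratio of -0.47 (-0.53 to -0.42). Its cyclins went the other way. Ccnb2 had 47.4 TPM in pup 2 against 30.9 TPM in pup 1, Ccnb1 35.2 and 24.0 TPM, and Ccna2 35.0 and 24.5 TPM, with log2 ratios of 0.23, 0.14 and 0.12 and intervals above 0. These cyclins kept an even mixture, with shares of 39.6% ± 0.9498, 30.0% ± 0.198 and 30.3% ± 0.751 (SD, n = 2).

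By TPM over all transcripts, Cenpa and Birc5 came next after Cdk1 in level among mitosis genes. Cenpa, the histone variant of centromeres, had 69.0 TPM in pup 2 against 67.9 TPM in pup 1, at a log2 ratio of -0.40, and Birc5, survivin, 65.6 and 54.1 TPM, with -0.08. Aurkb, the kinase of the same complex as Birc5, had 22.0 and 15.5 TPM. Cenpf had 16.7 and 14.0 TPM, and Cenpe, a motor of the kinetochore, 4.14 and 3.15 TPM, the lowest of the class. Of the spindle checkpoint, Bub1b had 11.5 and 8.17 TPM, and Bub1 7.0 and 4.26 TPM with the highest log2 ratio of the class, 0.32 (0.17 to 0.48). Cdc20, which drives exit from mitosis, had 35.4 and 24.3 TPM. By scaled counts the log2 ratio of Cenpf was -0.22 (-0.32 to -0.12), opposite in direction to its TPM. Those of Bub1b, Cdc20, Aurkb and Cenpe were 0.12, 0.11, 0.10 and 0.01.

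The remaining mitosis genes ran from Top2a down to Cdc25c. Top2a, the topoisomerase that untangles chromosomes, had 36.1 TPM in pup 2 against 30.0 TPM in pup 1. The kinase genes Plk1 and Aurka had 14.8 and 10.5 TPM, and 15.3 and 13.6 TPM. The spindle factor genes Kif20a (13.8 and 11.2 TPM), Tpx2 (12.9 and 10.96 TPM) and Kif11 (8.90 and 6.05 TPM) lay near these. Mki67, whose protein is the Ki-67 proliferation marker, had 7.34 and 6.35 TPM from 2400 and 2556 counts, and Cdc25c, a phosphatase that activates Cdk1, 5.57 and 5.25 TPM. By scaled counts the log2 ratios were 0.17 for Kif11, 0.11 for Plk1, 0.02 for Tpx2 and -0.05 for Top2a. They were -0.08 for Kif20a, -0.18 for Mki67, -0.22 for Aurka and -0.30 for Cdc25c. Intervals lay above 0 for Kif11, and below 0 for Mki67, Aurka and Cdc25c, whose TPM was higher in pup 2.

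The inhibitors with enough counts were all lower in pup 2, relative to the bulk of genes. Cdkn2d, p19Ink4d (chromosome 9, 21288410 to 21291407), had 37.2 TPM in pup 2 against 41.0 TPM in pup 1, at a log2 ratio of -0.53 (-0.63 to -0.43). Cdkn2c, p18Ink4c, an inhibitor of Cdk4 and Cdk6 like Cdkn2d, had 11.3 and 11.8 TPM, with -0.51 (-0.67 to -0.35). Cdkn1a, p21, a p53 target, had 39.9 and 34.1 TPM, with -0.20 (-0.32 to -0.09). Cdkn1b, p27, had 11.4 and 10.2 TPM, with -0.21 (-0.34 to -0.08). The counting interval lay below 0 for these 4 of 4, against 34.8% of all genes. By TPM Cdkn1a and Cdkn1b were higher in pup 2 (log2 TPM ratios 0.22 and 0.15), and under spike-in scaling all 4 were. Cdkn2a had 0 counts in pup 2 and 4 in pup 1, listed at 0 and at 0.12 TPM. A count of 0 allows up to 3 counts, so no difference was detectable at this depth.

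No member lay over 2-fold apart. All 53 members with a ratio averaged 100 or more counts, and 0 had a log2 ratio beyond 1 in either direction, against 9.13% of 13870 genes at that depth, with 2.78% over 2-fold higher in pup 2 and 6.35% over 2-fold higher in pup 1. By TPM ratio 2 members, Cdc6 (1.19) and Mcm2 (1.02), passed that limit, against 9.20% of the 13870 genes. By total counts Cdc6 alone (1.03) passed it, against 8.95%. The biological coefficient of variation between the pups was 28.5% over the genes at that depth, which corresponds to a spread of log2 ratios of 0.58 (1 SD). Beyond that spread lay 3 members, Ccnd1, Mcm2 and Cdc6, against 26.3% of the genes at that depth. With the coefficient over all 18670 genes, 33.4%, the spread was 0.68. Ccnd1 and Cdc6 lay beyond it, against 20.5% of the 13870 genes that averaged 100 or more counts. The interquartile range of the ratios was 0.43 for the members and 0.66 for all genes at that depth. Counting intervals spanned 0 for 14 of the 53 members, against 5674 of all 18670 genes. Those 18670 include genes under 100 counts, whose intervals are wider.

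**Figure D3:**
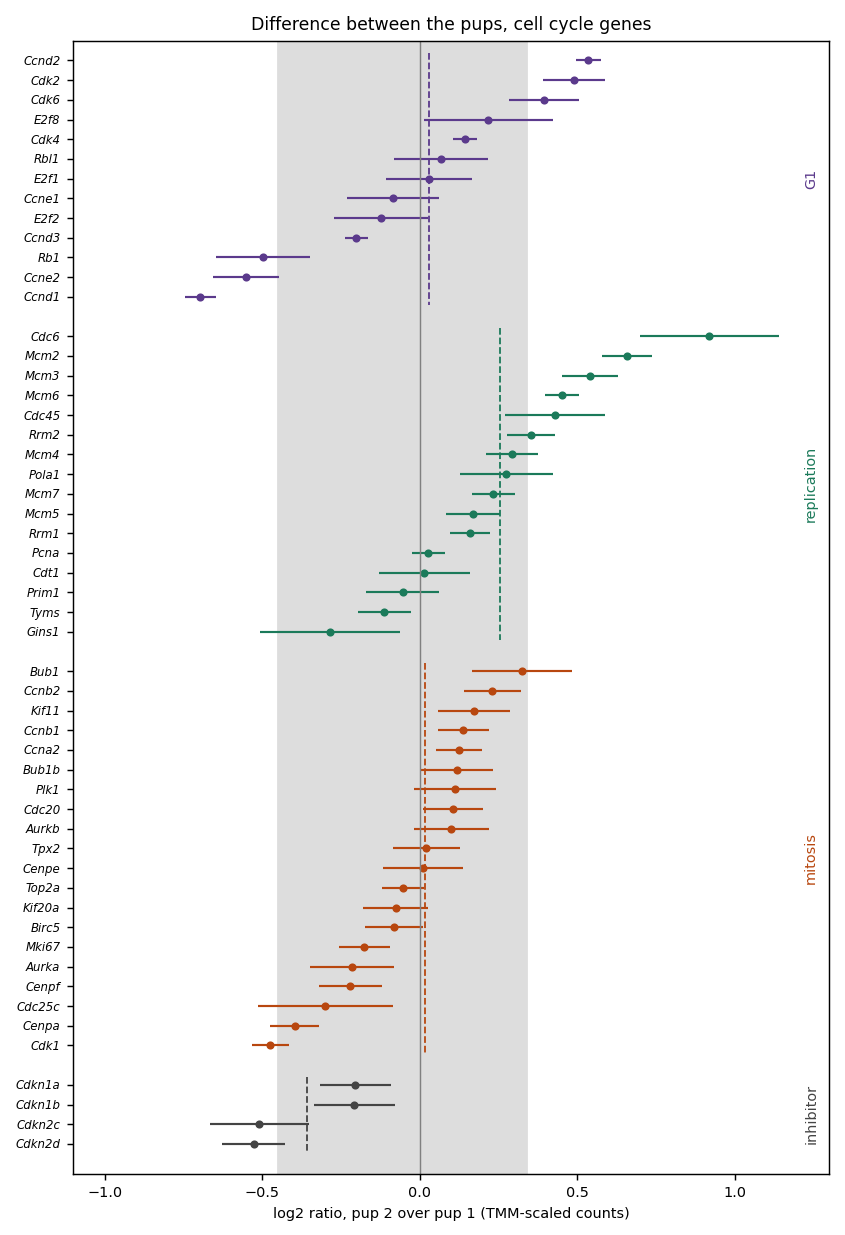
Log2 ratio of pup 2 over pup 1 from TMM-scaled counts for the 53 members with enough counts, by class. Bars are exact 95% counting intervals, dashed lines are class medians, and the grey band is the interquartile range of all genes. Replication genes lie mostly right of 0 and the 4 inhibitors left of it, while all members lie between -0.70 and 0.92.

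For several of the most abundant members a large part of the TPM sat outside protein-coding transcripts. Of 40 members with over 1 annotated transcript and counts in both pups, 36 had the same leading transcript in both pups, and 10 members had under 90% of their TPM in protein-coding transcripts in both pups. Tyms had 6.17% of its TPM in its coding transcript in pup 2 and 5.68% in pup 1, and short transcripts typed as retained intron or nonsense-mediated decay carried most of the rest. Cdk4 had 32.6% and 33.3%, and its leading transcript (ENSMUST00000145670.1) is a retained intron form of 468 bases with 38.8% and 38.0% of the TPM. Cenpa had 40.2% and 44.0%, Top2a 54.8% and 52.2%, Ccnd1 57.1% and 53.2%, and Cdk1 65.2% and 65.7%. Of the less abundant members, Rbl1 had 28.1% in pup 2 and 43.7% in pup 1, and its leading transcript is a retained intron form. Rb1 had 47.8% and 50.6%, and in pup 2 a processed transcript of 408 bases led. Cenpf had 55.3% and 58.4%, and Mcm3 70.7% and 69.5%. TPM divides reads by length, so 1 read adds more TPM to a short transcript than to a long one.

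**Figure D4:**
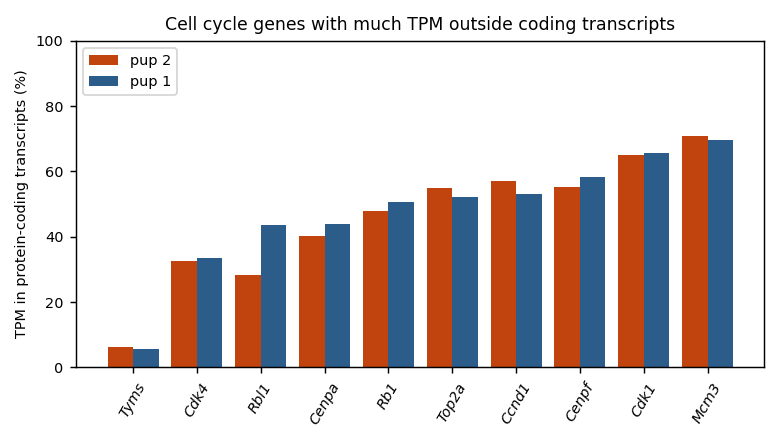
Share of the TPM of a gene in transcripts annotated as protein-coding, in percent, pup 2 left of pup 1, for the 10 members under 90% in both pups. Tyms is lowest, with 6.17% in pup 2 and 5.68% in pup 1.

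Over coding transcripts alone, the order at the top changed. Ccnd3 then led with 186 TPM in pup 2 against 164 TPM in pup 1, ahead of Cdk4 with 136 and 94.7 TPM, Pcna with 123 and 94.1 TPM and Cdk1 with 92.6 and 99.8 TPM. Cdk4 lay above Cdk1 in pup 2 and below it in pup 1. Tyms moved from place 7 to place 50 of the 54 genes, with 4.06 and 3.35 TPM. Cenpa moved from place 6 to place 16, with 27.8 TPM in pup 2 against 29.8 TPM in pup 1, below Birc5 and Ccnb2 in both pups. Ccnd1 had 44.2 TPM in pup 2 against 54.2 TPM in pup 1, below Ccnd2 in pup 2 and above it in pup 1. The shares of the other families moved less, and Mcm6 held 32.6% and 31.3% of the MCM sum. Mcm3 had 25.2 TPM in pup 2 against 13.2 TPM in pup 1, below Mcm2 in both pups and the lowest subunit in pup 1.

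The promoters of the classes held short regulatory elements in unlike shares. Windows from 250 bases before to 50 after the start were at hand in RefSeq (GRCm38.p6) for 43 of the 54 genes. They were searched on both strands for the E2F element (TTGGCGC, or the same letters with CG, CC or GC in place of GG), the CHR element (TTTGAA or TTTAAA) and the CCAAT box (CCAAT), and a gene with several windows counted once if any held a match. Matches on opposite strands can overlap. A CHR match was found in 14 of 15 mitosis genes, 4 of 14 replication genes, 3 of 9 G1 genes and 1 of 5 inhibitors, against 22.5% of 10168 expressed protein-coding genes and 30.6% of all 27025 genes. An E2F match was found in 10 of 14 replication genes, 4 of 9 G1 genes, 2 of 5 inhibitors and 3 of 15 mitosis genes, against 19.3% of expressed coding genes and 10.9% of all genes. The CCAAT box, which the factor NF-Y binds, was found in 14 of 15 mitosis genes, 11 of 14 replication genes, 4 of 5 inhibitors and 4 of 9 G1 genes. It was found in 42.9% of expressed coding genes and 41.1% of all genes. Both CHR and CCAAT were held by 13 of the 15 mitosis genes, 4 of 14 replication genes, 2 of 9 G1 genes and 1 of 5 inhibitors, against 9.30% of expressed coding genes. A match describes letters in a window and is no measured binding, and no bound factor was measured in these libraries.

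**Figure D5:**
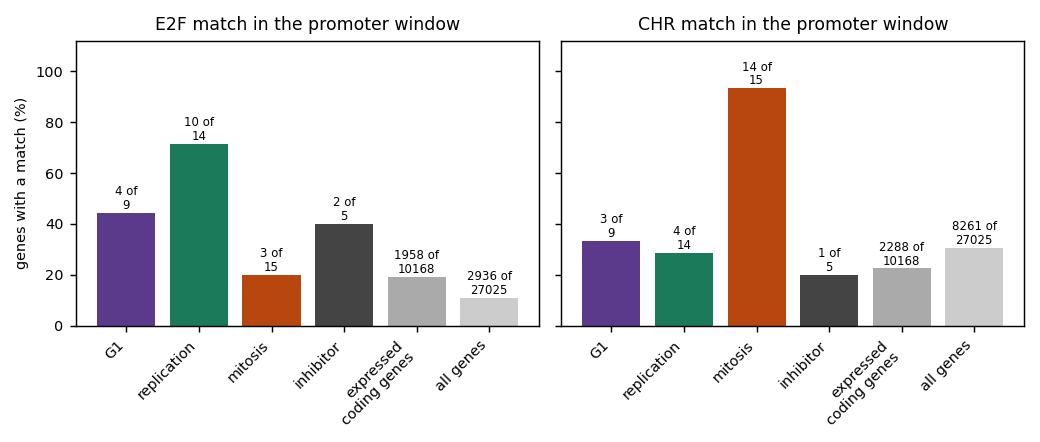
Share of genes whose promoter window holds an E2F match (left) or a CHR match (right), in percent, for the 4 classes, for protein-coding genes at TPM 1 or more in both pups and for all genes with a window. Numbers above the bars are genes with a match of genes with a window; replication leads for E2F with 10 of 14 and mitosis for CHR with 14 of 15.

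The last 120 bases before the start are shown for the 2 most abundant replication genes with an E2F match there and the 2 most abundant mitosis genes with a CHR match there, among genes with 1 window whose stretch lies outside the gene as GENCODE annotates it, since E2F matches were most frequent in replication genes and CHR matches in mitosis genes. Each is from RefSeq (GRCm38.p6), 5′ to 3′ on the strand of the gene, with matches to any of the 3 elements in capitals (on the other strand the CCAAT box reads ATTGG and TTTGAA reads TTCAAA). Overlapping matches run together.
Mcm6 (chr1:128359706-128359825, minus strand): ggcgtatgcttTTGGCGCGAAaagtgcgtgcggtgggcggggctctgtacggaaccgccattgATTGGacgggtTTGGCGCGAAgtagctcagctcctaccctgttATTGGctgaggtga
Rrm1 (chr7:102441575-102441694, plus strand): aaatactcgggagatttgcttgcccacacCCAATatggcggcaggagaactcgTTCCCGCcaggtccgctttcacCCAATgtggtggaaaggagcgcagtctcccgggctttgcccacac
Top2a (chr11:99024190-99024309, minus strand): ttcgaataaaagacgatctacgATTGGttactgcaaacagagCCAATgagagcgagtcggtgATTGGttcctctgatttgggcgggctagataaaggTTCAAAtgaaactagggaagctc
Plk1 (chr7:122159315-122159434, plus strand): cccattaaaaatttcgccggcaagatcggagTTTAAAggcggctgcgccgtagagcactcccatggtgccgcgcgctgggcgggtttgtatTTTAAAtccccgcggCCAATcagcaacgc
The stretch of Mcm6, the most abundant MCM gene, holds E2F matches on both strands that overlap. Rrm1 has 1 E2F match, 67 bases before the start. Top2a, with 36.1 TPM in pup 2 against 30.0 TPM in pup 1, has 1 CHR match, on the other strand 23 bases before the start, after 3 CCAAT boxes. Plk1, with 14.8 and 10.5 TPM, has 2 TTTAAA matches, the first 89 bases before the start, and 1 CCAAT box after them. Cdk4, Ccnd3 and Pcna, the most abundant G1 and replication genes, held neither an E2F nor a CHR match in their windows.

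Other genes of the cycle, listed by name as a frame for the members, were at like levels. All 77 reached TPM 1 in both pups, and their median was 20.8 TPM in pup 2 against 17.2 TPM in pup 1. The highest was the imprinted inhibitor gene Cdkn1c, p57, with 1176 TPM in pup 2 against 587 TPM in pup 1 and a log2 ratio of 0.62 (0.60 to 0.64), opposite in direction to the 4 inhibitors among the members. Rpa3, a subunit of the protein that coats single-stranded DNA, had 141 and 197 TPM, with -0.87. Cks1b and Cks2, small partners of the kinases, had 161 and 157 TPM and 140.2 and 130.2 TPM, with -0.35 and -0.28. Of the 77, 50 were higher in pup 2 and 27 in pup 1 by scaled counts, and 72 and 5 by TPM. Of all genes that averaged 10 or more counts, 50.2% were higher in pup 2 by scaled counts and 72.1% by TPM. The median log2 ratio of the 77 was 0.09. Of 76 that averaged 100 or more counts, 0 lay over 2-fold apart, against 9.13% of all genes at that depth.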

How the data were processed

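Per the labels, total RNA was extracted from 2 adrenals of each pup and each library was made from 10 ng with added spike-ins. The authors deposited, per library, a gene and a transcript table on mm10 and GENCODE M4, per the text file deposited with it; of aligner, quantifier and strand handling, the name and settings were not given in the sources used here. Per the file headers, the deposited tables hold expected counts (estimated, not whole for 15.9% of Ensembl rows in pup 2 and 15.3% in pup 1, at a tolerance of 0.001), posterior mean counts, TPM, FPKM and isoform percent. The posterior standard deviations are a deposited score and were not used. Spike-in rows (0.00250% of counts in pup 2, 0.0138% in pup 1) and 26248 numbered rows stayed out of library sizes. GENCODE M21, also on mm10, gave symbols, positions and transcript types.

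Counts were rounded and scaled by TMM in edgeR 4.0.16 (R 4.3.3). Ratios are log2 of pup 2 over pup 1 with 0.5 added, for genes that averaged 10 or more counts. Counting intervals are exact binomial at 95%, and they and the limit of 3 counts cover counting error only, since reads are not independent molecules. Both pups are replicates of 1 group, and no test between pups was run because each is 1 library. The ratio step was tested on simulated data. Alternatives were DESeq2 1.42.0 size factors, spike-in or total scaling, posterior counts, TPM ratios, other pseudocounts and filters, a length and GC trend removed, FPKM, rescaled or summed TPM, and, chosen after seeing the data, coding transcripts only. Genes named in full were the 4 highest of each class, the 3 furthest apart in each direction, members under TPM 1, all inhibitors and all members of the families compared; the other members are named with values as the list is small. The protein motif planned was not searched, since no protein sequences were at hand. Members and lists were chosen with earlier results of these data known. Other steps used python 3.11.15, pandas 2.3.3, numpy 2.4.6 and scipy 1.17.1.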

Additional observations from a re-analysis of the deposited data

How the results depend on the processing

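Scaling decides how the pups compare. Under spike-in scaling the median log2 ratio was 2.60 for G1 genes and for all members, 2.82 for replication, 2.58 for mitosis, 2.21 for inhibitors and 2.66 for the other cell cycle genes. With that scaling 13, 16, 20 and 4 genes of the classes, 53 members and 76 other genes lay over 2-fold apart, against 98.4% of 13870 genes, because it lifts all genes by 2.57. By TPM ratio the medians were 0.39 for G1, 0.57 for replication, 0.32 for mitosis, 0.043 for inhibitors, which puts their median above 0, 0.44 for all members and 0.43 for the other genes. Over 2-fold apart by TPM ratio were 2 replication genes, the same 2 of all members, and 1 other gene, against 9.20% of 13870 genes. By total counts the replication median was 0.36 and that of the other genes 0.20. With them 1 replication gene, the only member, lay over 2-fold apart, against 8.95% of 13870 genes. With no count filter Cdkn2a entered and the inhibitor median was -0.51. Without the filter 1 inhibitor, the only member, counted as over 2-fold apart, against 30.3% of 25262 genes. Other settings were DESeq2 size factors, posterior counts, a pseudocount of 5 and removal of the length and GC trend over all genes, which held 1.76% of the variance of their ratios. These left each class median between the median lower and the median upper interval bound of its members, which is no interval of the class median itself. Levels moved in FPKM (13.1 for mitosis, 10.3 for inhibitors) and with TPM over protein-coding genes (15.3 for G1, 19.4 for mitosis, 15.2 for inhibitors, 22.6 for all members). Over coding transcripts the median of all members was 14.2 TPM, and the family shares were 63.1% for Ccnd3, 46.7% for Cdk4 and 31.9% for Mcm6. At TPM 5, 47 members were detected in both pups. No paired analysis was possible because both libraries are replicates of 1 group. Depth limits only Cdkn2a among the members.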

Other observations

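Across the 53 members with enough counts, Spearman's rho between length and the log2 ratio of pup 2 over pup 1 was 0.38, against 0.09 across all 18670 genes that averaged 10 or more counts, given as a description since all points share the same 2 libraries.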
